A study of Mus musculus with 29 samples.

Results

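The comparison described here asked which transcripts differed after 24 h with transforming growth factor beta (TGF-beta) when lactic acid was in the medium of both groups. Its members are 6 of the 29 libraries of the series, taken by their titles: 3 of conventional T cells (Tcon) with TGF-beta and lactic acid, and 3 of Tcon with lactic acid alone, with replicate numbers 1 to 3 in each group. The cells were CD4+ T cells from spleens of C57BL/6-Foxp3tm1Flv/J mice, in which a red fluorescent protein (RFP) is made from the Foxp3 locus, and the sorted fraction was RFP-negative. All 6 cultures received antibodies to CD3 (1.25 ug/ml) and CD28 (2.5 ug/ml), 50 IU/ml interleukin 2, 50 uM 2-mercaptoethanol and 10 mM lactic acid in medium with 0.5 mM glucose. The groups differed in TGF-beta, at 3 ng/ml or not added. In both groups replicate 1 came from male and replicates 2 and 3 from female mice. The age of the mice is not given in the sources used here. Because of the sort, cells with detectable RFP at 24 h are not in these libraries, and nothing in the labels tells whether same-numbered cultures came from 1 mouse or from pooled mice. Replicate 1 differed in sex from replicates 2 and 3 and so came from other mice. If replicates 2 and 3 were not separate cultures, the p-values below measure a spread that may in part be technical.

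TGF-beta binds the type II receptor Tgfbr2, which activates the type I receptor Tgfbr1. The activated receptor phosphorylates Smad2 and Smad3, and these enter the nucleus with Smad4 and act on target genes. The pathway limits itself through induced inhibitors such as Smad7, Skil and Pmepa1. In activated CD4+ T cells TGF-beta is known for the induction of Foxp3, the transcription factor of regulatory T cells, for the restraint of Th1 and Th2 differentiation, of interleukin 2 production and of proliferation, and, together with inflammatory cytokines, for the induction of Th17 cells. Lactic acid adds lactate and protons to the medium. What was measured is polyadenylated RNA, and in such bulk samples fewer cells of a type and less RNA per cell cannot be told apart.

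Levels are given as CPM, that is, gene counts relative to library sizes scaled by the trimmed mean of M values (TMM). Changes are log2 fold changes of the TGF-beta group over the group with lactic acid alone, with the standard error (SE) derived from the quasi-likelihood test of edgeR. A gene is called when its Benjamini-Hochberg adjusted p over all genes tested is below 0.05, and "rose" and "fell" are used of called genes. The 6 libraries held 10842352 to 12575134 gene counts each, with 17810 to 18361 genes detected. On the leading axis of a principal component analysis of the 12 Tcon libraries at 24 h (47.5% of variance), scores were 13.66 to 44.91 with TGF-beta and -42.51 to -11.77 in its absence.

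The leading rises started from low levels without TGF-beta, and the bases before their start sites are shown because these genes moved together. The promoter table of RefSeq (build GRCm38.p6) held 14 of the 23 leading or preselected genes that rose, and the 4 with the largest rise among those are printed. Each is the 250 bases before a start of the gene, 5′ to 3′ on the gene's strand. For Emp1 and Foxp3, with more than 1 start, the one that matched more GENCODE transcripts was taken (3 against 1 and 6 against 1). A match is a transcript that holds, near its beginning, bases from just after the start. Capitals mark the Smad motif CAGAC or the AP-1 letters TGACTCA, on either strand. The windows are chr4:148160418-148160667 (plus strand) for Fbxo2, chr6:135362681-135362930 (plus strand) for Emp1, chr4:41098184-41098433 (minus strand) for Aqp3 and chrX:7579426-7579675 (plus strand) for Foxp3.
Fbxo2: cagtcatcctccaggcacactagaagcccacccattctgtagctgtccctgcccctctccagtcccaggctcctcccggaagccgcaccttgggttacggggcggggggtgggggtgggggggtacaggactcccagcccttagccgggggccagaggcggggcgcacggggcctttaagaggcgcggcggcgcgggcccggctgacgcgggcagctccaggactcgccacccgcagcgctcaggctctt
Emp1: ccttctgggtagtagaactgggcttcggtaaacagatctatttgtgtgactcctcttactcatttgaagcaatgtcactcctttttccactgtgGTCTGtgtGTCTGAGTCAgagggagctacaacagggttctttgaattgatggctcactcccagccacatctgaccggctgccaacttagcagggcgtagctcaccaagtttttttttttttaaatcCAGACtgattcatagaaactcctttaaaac
Aqp3: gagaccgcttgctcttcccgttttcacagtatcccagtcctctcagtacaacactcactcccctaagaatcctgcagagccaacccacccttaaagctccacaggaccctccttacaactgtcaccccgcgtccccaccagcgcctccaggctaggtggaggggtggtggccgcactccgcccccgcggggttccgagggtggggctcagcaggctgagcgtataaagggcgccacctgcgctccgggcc
Foxp3: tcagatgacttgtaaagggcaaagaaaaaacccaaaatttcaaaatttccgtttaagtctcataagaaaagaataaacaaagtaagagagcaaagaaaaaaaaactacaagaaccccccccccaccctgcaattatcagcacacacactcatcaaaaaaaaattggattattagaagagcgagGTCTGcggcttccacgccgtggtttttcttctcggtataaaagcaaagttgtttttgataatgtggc

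The Emp1 window held 3 Smad motifs and 1 AP-1 match, which shares bases with the second Smad motif. The Foxp3 window held 1 Smad motif. No match to either motif, to the palindromic Smad box GTCTAGAC or to the E-box CACGTG was found in the windows of Fbxo2 and Aqp3, which says only that these letters are not there. The Smad motif was held by 42.2% of all 32851 windows of this length in the table and by 40.7% of the 12607 windows of the genes tested, beside 42.5% of the 1187 windows of genes that rose and 36.1% of the 576 windows of genes that fell. In the same order, the shares for the AP-1 letters were 4.46%, 3.13%, 3.71% and 4.17%. Those for the E-box were 6.02%, 8.27%, 6.49% and 9.9%, and those for the palindromic box 0.167%, 0.214%, 0.253% and 0.174%.

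With TGF-beta, 1788 of 14375 genes were called (12.4%), of which 1159 rose (8.06%) and 629 fell (4.38%). Rises reached further: 439 genes rose and 174 fell by at least 2-fold, and 161 rose and 37 fell by at least 4-fold. At an unadjusted p under 0.05 there were 3606 genes. The 3 libraries of each group did not overlap for 1697 of the called genes, against 39% of all genes tested (20.4% toward higher and 18.6% toward lower). For 1786 of them the 3 same-numbered pairs all differed in the direction of the call, as was so for 31.8% of all genes toward higher and 30.9% toward lower. The median log2 fold change of all genes was 0.015. Deviations from the group means were shared by libraries of the same number, and a fit with the replicate number as a block within each time point called 4655 genes (32.4%; 2482 or 17.3% higher and 2173 or 15.1% lower), including 1786 of the 1788 in the same direction. The balance of directions differed between fits: relative log expression (RLE) scaling, which shifted the log2 fold changes by a median of -0.042, gave 991 higher and 829 lower, and DESeq2 gave 1114 and 1027. The count without 1 library was 976 without lactic acid alone replicate 1, 1140 without lactic acid alone replicate 2 and 1088 without TGF-beta replicate 3, and 400 genes fell without TGF-beta replicate 2. Replicates 2 and 3 alone, all from female mice, gave 3100 (1657 higher and 1443 lower).

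The largest rise was that of Fbxo2, the substrate receptor of a ubiquitin ligase that recognises glycoproteins. It was at 0, 0.0821 and 0 CPM in replicates 1 to 3 with lactic acid alone and at 22.1, 20 and 20.8 CPM with TGF-beta. These are 1 count against 772 counts, a ratio of 735 with an exact 95% interval of 132 to 2.91e+04 that covers counting error only (edgeR adjusted p = 7.0e-11). The gene was thus all but unmeasured without TGF-beta in every library and well above that level in every library with it.

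Emp1, an epithelial membrane protein of the claudin-like family, was at 0.167, 0.164 and 0.820 CPM with lactic acid alone and at 35.2, 46.4 and 46.0 CPM with TGF-beta (log2 fold change 6.8 ± 0.35 SE). Aqp3, a channel for water and glycerol, was at 1.25, 2.30 and 3.28 CPM and at 130, 112 and 108 CPM (5.68 ± 0.28). Foxp3 was at 0.920, 1.97 and 1.46 CPM and at 73.3, 64.5 and 57.1 CPM, a rise of 5.47 ± 0.38 (edgeR adjusted p = 3.9e-10). For these 3 genes every library with TGF-beta lay above every library without it, which the rule for naming the leading rises required. The cells had been sorted as RFP-negative.

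The other leading rises were spread over unrelated functions. Syp, the synaptic vesicle protein synaptophysin, rose from 2.65 ± 1.03 to 66.7 ± 5.91 CPM (SD, n = 3 each). Maf, the transcription factor c-Maf, rose from 5.47 ± 1.73 to 88.4 ± 8.04 CPM, and Adgrg1, the adhesion receptor GPR56, from 1.61 ± 0.67 to 28.03 ± 3.77 CPM. Stab1, a scavenger receptor, rose by 4.498 ± 0.39 on the log2 scale, Itgae, the integrin chain CD103, by 4.26 ± 0.42, Sardh, a sarcosine dehydrogenase, by 4.52 ± 0.52, and Pyroxd2, an oxidoreductase, by 4.64 ± 0.59. All 12 leading rises had 3 libraries above 3 without overlap, which the rule for naming them required.

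Effector genes led the falls. Gzmb, the protease granzyme B, was at 36.2, 32.6 and 19.6 CPM with lactic acid alone and at 1.89, 1.99 and 2.04 CPM with TGF-beta, a log2 fold change of -3.89 ± 0.41 (edgeR adjusted p = 2.4e-07). Eomes, a T-box factor of cytotoxic cells, was at 135, 122 and 115 CPM and at 11.5, 11.1 and 15.5 CPM (-3.28 ± 0.46). Il2, which encodes interleukin 2, was at 170, 104 and 81.3 CPM and at 32.2, 18.4 and 18.2 CPM (-2.37 ± 0.50, edgeR adjusted p = 0.0021). In each of these genes every library with TGF-beta was below every library without it, which the rule for naming the leading falls required.

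Among the other leading falls were 2 serpins that inhibit granule proteases, Serpinb9 (199 ± 54.1 to 33.5 ± 5.32 CPM) and Serpinb6b (128 ± 39.6 to 30.2 ± 3.44 CPM). Tnfsf11, the cytokine RANKL, went from 108 ± 19.0 to 28.6 ± 4.96 CPM. Log2 fold changes were -2.58 ± 0.28 for Plk2, a polo-like kinase, -2.04 ± 0.27 for Mcoln2, a lysosomal cation channel, -1.955 ± 0.23 for Icam5, an adhesion molecule, and -1.93 ± 0.30 for Slco4a1, an organic anion transporter. They were -1.87 ± 0.28 for Serpine2, a secreted serpin, and -1.86 ± 0.13 for Sik1, a salt-inducible kinase. The 24 leading genes kept their calls when any 1 of the 6 libraries was left out and under every other alternative run.

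**Figure D1:**
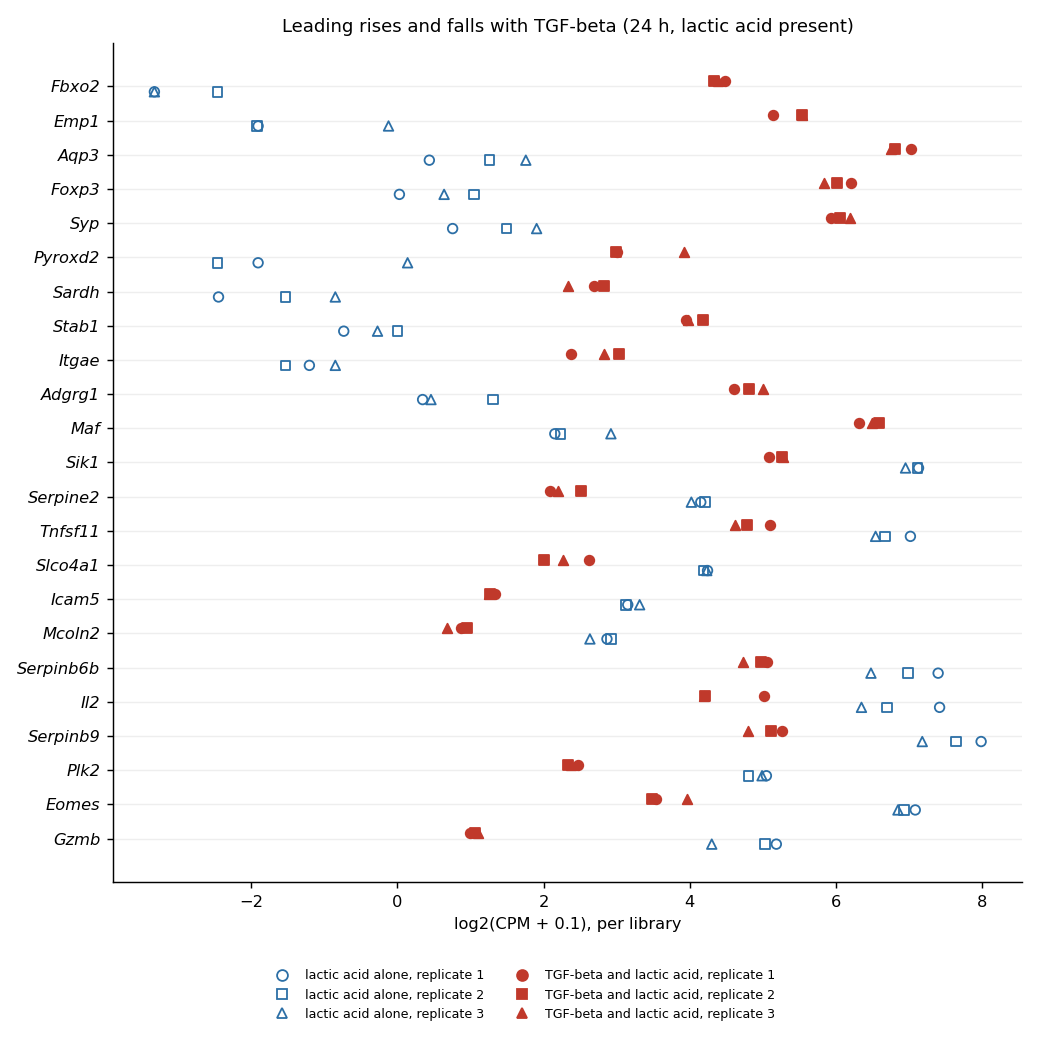
Level of 11 of the 12 largest rises and the 12 largest falls in each of the 6 libraries, as log2(CPM + 0.1); open blue symbols are lactic acid alone and filled red symbols TGF-beta and lactic acid, with 1 symbol shape per replicate number. The groups do not overlap in any row, as the rule for these genes required; Foxp3 lies at 0.920 to 1.97 CPM without and 57.1 to 73.3 CPM with TGF-beta.

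Within the TGF-beta pathway, of 22 tested ligands, receptors, activators and Smads 7 rose (31.8%, against 8.06% of all genes) and none fell, with a median log2 fold change of 0.26. Tgfbr1 was at 93.8, 106 and 110 CPM with lactic acid alone and at 563, 637 and 510 CPM with TGF-beta (2.47 ± 0.13, edgeR adjusted p = 6.9e-12). Tgfbr2 was at 117, 125 and 155 CPM and at 235, 269 and 323 CPM (1.06 ± 0.16). The groups were apart for both receptors. The coreceptor Tgfbr3 rose by 0.38 ± 0.12, a call that was lost without lactic acid alone replicate 1 or 2 or TGF-beta replicate 2 or 3 and under RLE scaling, and the accessory receptor Eng by 1.13 ± 0.30. Among ligands and activators, Tgfb1 rose from 161 ± 11.5 to 224 ± 19.4 CPM, and Furin, the protease that cleaves its precursor, from 156 ± 12.4 to 292 ± 14.0 CPM. Acvr1b, an activin type I receptor, rose by 0.67 ± 0.11.

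The Smads themselves were not called. Smad3 was at 65.2, 64.3 and 77.3 CPM with lactic acid alone and at 63.7, 72.3 and 86.2 CPM with TGF-beta, with a 95% interval of the log2 fold change from -0.22 to 0.42, and the groups overlapped. The interval of Smad2 ran from 0.00 to 0.30 and that of Smad4 from 0.09 to 0.50 (edgeR adjusted p = 0.071, and 0.0014 with replicates paired). Itgav, the most abundant uncalled member and a chain of integrins that release active TGF-beta, differed by 0.09 ± 0.21.

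Of 16 tested inhibitors of the pathway, 7 rose and none fell (43.8% called, against 12.4% of all genes), with a median of 0.44. Smad7, which blocks the receptors, was at 20.1, 24.7 and 38.4 CPM with lactic acid alone and at 74.7, 96.9 and 138 CPM with TGF-beta (1.90 ± 0.22). Pmepa1, which sequesters receptor Smads, was at 34.7, 34.6 and 40.3 CPM and at 160, 176 and 186 CPM (2.25 ± 0.20). Ldlrad4, a related membrane inhibitor, was at 3.43, 3.86 and 4.74 CPM and at 43.4, 47.6 and 44.5 CPM (3.50 ± 0.24, edgeR adjusted p = 3.1e-10). The nuclear corepressors of Smads Ski and Skil rose by 1.56 ± 0.16 and 1.14 ± 0.17, and the ubiquitin ligases Smurf1 and Smurf2 by 1.22 ± 0.14 and 0.64 ± 0.08. For Smad7, Pmepa1 and Ldlrad4 the lowest library with TGF-beta lay above the highest without it. Usp15, a deubiquitinase of the receptor complex and the most abundant uncalled member, differed by -0.18 ± 0.08 (edgeR adjusted p = 0.17, and 0.0095 with replicates paired).

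Of 20 tested genes known as TGF-beta targets in other cell types, 2 rose and 3 fell (8.06% and 4.38% of all genes), and their median was -0.08. Vim, the intermediate filament vimentin, rose from 9.86 ± 4.15 to 41.8 ± 6.52 CPM, and Klf10, a TGF-beta-inducible zinc finger factor, from 19.7 ± 0.791 to 60.0 ± 5.04 CPM. Id3, an inhibitor of E proteins, fell by 1.07 ± 0.26, the stress factor Atf3 by 0.95 ± 0.25 and the helix-loop-helix factor Bhlhe40 by 0.85 ± 0.18. The call of Atf3 was lost without TGF-beta replicate 3, and 4 members rose without TGF-beta replicate 1. With replicates paired, 4 members were higher and 7 lower, beside 17.3% and 15.1% of all genes.

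Of 16 matrix and cytoskeleton genes tested, 4 rose and 1 fell, beside 8.06% and 4.38% of all genes. A further 8 listed genes did not pass the filter on low counts. Timp2, an inhibitor of metalloproteinases, rose from 21.0 ± 1.53 to 108 ± 7.63 CPM, and the galectin gene Lgals1 from 12.8 ± 1.06 to 25.1 ± 3.08 CPM. Thbs1, which encodes the TGF-beta activator thrombospondin 1, rose to 2.50, 2.15 and 2.04 CPM from 0.167 CPM or less.

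**Figure D2:**
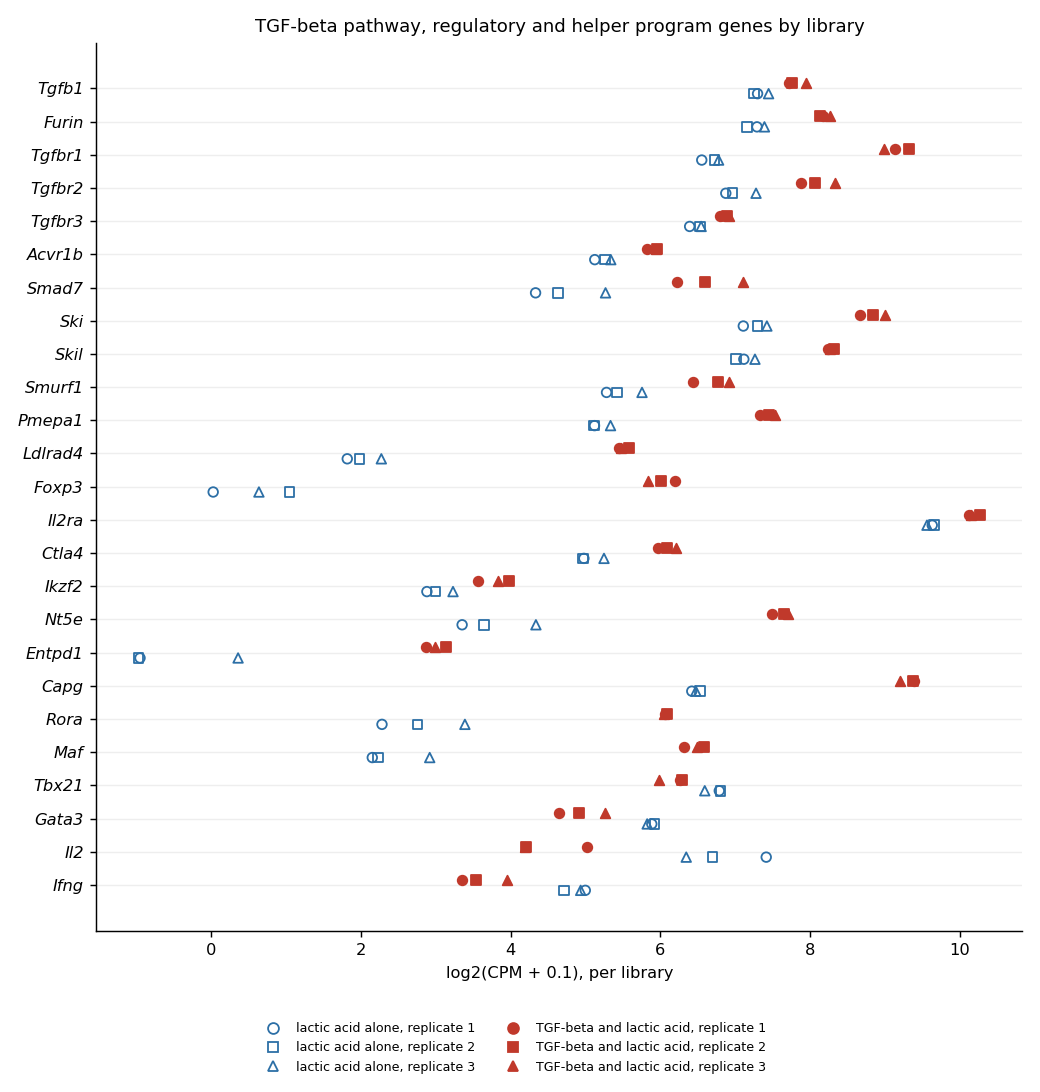
Level of genes of the TGF-beta pathway and of regulatory and helper programs in each of the 6 libraries, as log2(CPM + 0.1), with symbols as in the plot of leading genes. Tgfbr1 rises from 93.8 to 110 CPM to 510 to 637 CPM; Il2ra and Ifng are apart between groups without being called.

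The regulatory T cell signature was among the lists with the most called members. Of 25 tested, 13 rose and 2 fell (60% called, against 12.4% of all genes). The median of the list was 0.80 beside 0.015 for all genes. Besides Foxp3 and Itgae, the ectoenzymes that turn extracellular ATP into adenosine rose. Nt5e (CD73) was at 10.1, 12.4 and 20.1 CPM with lactic acid alone and at 180, 201 and 209 CPM with TGF-beta (3.79 ± 0.33). Entpd1 (CD39) was at 0.418, 0.410 and 1.18 CPM and at 7.24, 8.69 and 7.86 CPM (3.57 ± 0.25). Both were apart between groups by several fold. Capg, an actin capping protein, rose from 88.9 ± 3.37 to 642 ± 45.4 CPM, and Socs2, a cytokine signalling inhibitor, from 5.13 ± 0.18 to 37.5 ± 1.599 CPM. The inhibitory receptor Ctla4 rose by 1.02 ± 0.18, from 31.1 to 37.9 CPM to 62.4 to 74.0 CPM over the libraries. Ikzf4 (Eos) rose by 2.31 ± 0.26, and its relative Ikzf2 (Helios) by 0.77 ± 0.23 (edgeR adjusted p = 0.030), a call that was lost without lactic acid alone replicate 1 or 2 or TGF-beta replicate 2 or 3.

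The members that fell were Tnfrsf9, the costimulatory receptor 4-1BB (by 0.78), and Swap70, a membrane-cytoskeleton adaptor (by 0.54). Whichever library was left out, only 1 member of the signature fell, and 11 to 13 rose. Il2ra, the interleukin 2 receptor alpha chain, was at 793, 804 and 755 CPM with lactic acid alone and at 1116, 1238 and 1131 CPM with TGF-beta. Its groups did not overlap, but it was not called in the fit without pairs (0.57 ± 0.20, edgeR adjusted p = 0.070) and was with replicates paired (adjusted p = 0.00027). The signature thus did not move as 1 block, and Il10, a cytokine of regulatory cells, was at 0.492 to 1.73 CPM without and 0.517 to 1.04 CPM with TGF-beta.

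Known regulators of the Foxp3 locus were called in both directions. Of 28 tested, 7 rose and 8 fell, beside 8.06% and 4.38% of all genes, with a median of -0.02. Runx1, which binds Foxp3 enhancers, rose from 103 ± 18.8 to 260 ± 25.5 CPM, Foxo1 from 149 ± 8.29 to 283 ± 24.1 CPM, Rara, the retinoic acid receptor alpha, from 49.6 ± 8.42 to 98.8 ± 11.7 CPM and Stat5b, which carries interleukin 2 signals, from 317 ± 11.7 to 570 ± 28.6 CPM. Gfi1, a transcriptional repressor, fell from 190 ± 4.29 to 64.2 ± 1.84 CPM, and Satb1, a chromatin organiser, from 682 ± 52.5 to 324 ± 54.7 CPM. The others that fell were Uhrf1, Nr4a1, Nr4a2, Nr4a3, Rxra and Rel, with the call of Nr4a2 lost without TGF-beta replicate 1. Leaving out 1 library left 3 to 5 members falling, with the lowest number without lactic acid alone replicate 1. Pairing gave 11 higher and 12 lower, beside 17.3% and 15.1% of all genes.

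Of 24 tested genes of tissue residency, adhesion and homing, 12 rose and 1 fell (54.2% called, against 12.4% of all genes). Their median was 0.81. The integrin chain Itgb2 rose from 361 ± 19.5 to 645 ± 22.5 CPM and the signalling regulator Rgs1 from 105 ± 9.71 to 304 ± 17.2 CPM. Among chemokine receptors Ccr8 rose by 1.91 ± 0.29, Cxcr3 by 1.79 ± 0.20 and Ccr6 by 2.81 ± 0.80. Cdh1, the adhesion molecule E-cadherin that binds CD103, went from 2 to 61 counts, a ratio of 29 (7.7 to 245). The oxysterol receptor Gpr183 fell by 1.22, and the chemokine receptor Ccr7 was at 942 to 1134 CPM without and 1123 to 1187 CPM with TGF-beta. Without lactic acid alone replicate 1 the number that rose was 6.

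Of 19 tested Th17 genes, 8 rose and 2 fell (52.6% called, against 12.4% of all genes), with a median of 0.90. Rora, a nuclear receptor that promotes the Th17 program, was at 4.77, 6.65 and 10.4 CPM with lactic acid alone and at 67.0, 68.3 and 66.0 CPM with TGF-beta (3.21 ± 0.52, edgeR adjusted p = 0.00012). Its libraries with TGF-beta were at nearly the same level and far above the others. Ahr, the aryl hydrocarbon receptor, rose by 1.70 ± 0.16 and Stat3 by 0.64 ± 0.09. Of the cytokines, Il17f rose to 1.55, 1.91 and 2.83 CPM from 0.364 CPM or less, Il17a was at 0.246 to 1.18 CPM and at 1.21 to 2.63 CPM without being called, and Csf2 (GM-CSF) fell by 1.56 ± 0.39. Without 1 library, 7 or 8 members rose and 1 to 3 fell, with 1 falling without lactic acid alone replicate 1 or 2 or TGF-beta replicate 3. Summed markers of gamma-delta T cells, which can make interleukin 17, were at 3.69 to 6.29 CPM without and 7.41 to 9.51 CPM with TGF-beta, mostly from Trdc (means of 3.91 and 7.96 CPM, not called). Trdv4 was at 0 in all 6 libraries, and the part of these markers in the values of Th17 genes was not tested.

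Of 18 Th1 genes, 5 rose and 4 fell, beside 8.06% and 4.38% of all genes, with a median of 0.14. Without lactic acid alone replicate 1 or 2 or TGF-beta replicate 3 the number that rose was 3. Tbx21, which encodes T-bet, was at 110, 111 and 96.5 CPM and at 76.7, 78.2 and 62.9 CPM (-0.55 ± 0.14, edgeR adjusted p = 0.010, and 0.0815 without TGF-beta replicate 3). Stat4 fell from 56.2 ± 3.43 to 27.7 ± 7.24 CPM and Il12rb1, an interleukin 12 receptor chain, from 229 ± 6.11 to 66.0 ± 3.19 CPM. Among those that rose were Cxcr3, the interleukin 18 receptor chains Il18r1 (1.51) and Il18rap (1.15) and the interferon gamma receptor chain Ifngr2 (0.62 ± 0.13). Ifng, which encodes interferon gamma, was at 31.9, 26.1 and 30.5 CPM without and at 10.1, 11.5 and 15.3 CPM with TGF-beta. Its groups were apart, yet it was not called in the fit without pairs (-1.26 ± 0.50, edgeR adjusted p = 0.11 without and 0.0047 with pairing).

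Of 17 Th2 genes, 2 rose and 5 fell, beside 8.06% and 4.38% of all genes. With 1 library left out 3 or 4 fell, with 3 without TGF-beta replicate 2 or 3, and 1 rose without any 1 library other than TGF-beta replicate 1. Gata3, the Th2 factor, was at 59.0, 60.6 and 56.6 CPM and at 24.98, 30.1 and 38.3 CPM (-0.91 ± 0.22, edgeR adjusted p = 0.0063). The others that fell were Gfi1, Nfil3 (by 1.24 ± 0.18) and the cytokines Il3 (by 1.78 ± 0.56) and Il5 (by 2.24 ± 0.72). Il5 was at low means of 1.32 CPM without and 0.266 CPM with TGF-beta. Those that rose were Maf and Il17rb. The cytokines Il4 (means of 5.60 and 4.89 CPM) and Il13 (16.1 and 7.96 CPM) were not called. Their edgeR adjusted p was 0.88 and 0.18, and 0.67 and 0.00060 with replicates paired. Il3 was at 8.36 CPM in replicate 1 and 3.55 CPM or less in the others without TGF-beta, and its call was lost without lactic acid alone replicate 1 or TGF-beta replicate 2 or 3.

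Of 12 tested genes of follicular helper cells, Il6ra rose by 0.90 ± 0.20 and Cd200 fell by 0.51 ± 0.14, a share of 16.7% called beside 12.4% of all genes. Of 16 checkpoint genes, Ctla4 and Cd96 (0.70 ± 0.13) rose and Cd200 fell (18.8% called). The call of Cd200 was lost without lactic acid alone replicate 1 or 2 or TGF-beta replicate 3. Without lactic acid alone replicate 3, 2 follicular helper genes fell. In DESeq2 4 checkpoint genes were lower, and 6 with replicates paired, beside 15.1% of all genes with pairing. Of 10 tested chemokine genes, 40% were called, beside 12.4% of all genes. Xcl1 rose from 65.1 ± 5.41 to 171 ± 20.6 CPM. Ccl3 fell from 38.6 ± 7.01 to 11.4 ± 1.04 CPM and Ccl4 from 96.2 ± 10.0 to 50.5 ± 2.60 CPM, and Ccl9 fell by 2.59 ± 0.60. The call of Ccl4 was lost without any 1 library other than lactic acid alone replicate 2 (edgeR adjusted p up to 0.0869). Of 17 cytotoxic genes, 41.2% were called, beside the same 12.4%. Gzmb, Serpinb9, Serpinb6b and Fasl fell, whereas Ctsw, the protease cathepsin W, rose from 18.3 ± 2.75 to 220 ± 27.0 CPM. Nkg7 and Tnfsf10 also rose (1.42 ± 0.27 and 0.90).

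The summed CD8 and natural killer markers were at 127 to 150 CPM without and 17.7 to 26.8 CPM with TGF-beta, and Eomes made up 124 and 12.7 CPM of the means. Cd8a was at 0.903 CPM or less, and Klrb1c and Ncr1 at 0.251 CPM or less, in all 6 libraries. Cd8b1 was at 12.5, 14.1 and 9.29 CPM and at 5.17, 6.93 and 8.25 CPM, a fall of 0.82 ± 0.26 whose call was lost without replicate 1 or replicate 2 of either group. The summed B cell markers were at 220 to 239 CPM and at 139 to 156 CPM, nearly all from Ighm (means of 226 and 143 CPM), with 2 and 1 of 12 markers at 0. The myeloid markers summed to at most 4.01 CPM, with 9 and 6 of 13 at 0, and the erythroid markers to at most 0.251 CPM. Plasma cell markers summed to 152 to 163 CPM and to 166 to 190 CPM, nearly all from Xbp1 (means of 156 and 177 CPM), with 1 and 2 of 5 at 0. Megakaryocyte markers (at most 3.92 CPM) and stromal markers (32.2 to 68.2 CPM) overlapped between the groups. The stromal sums came nearly all from Pecam1 (means of 47.4 and 48.2 CPM), with 3 of 6 markers at 0 in each group. Marker genes of CD4 T cells summed to 4614 to 4789 CPM and to 4586 to 5068 CPM, and Cd4 itself was at 555 to 590 CPM and at 472 to 513 CPM (-0.21 ± 0.07, edgeR adjusted p = 0.054). Mitochondrially encoded transcripts were at 8059 to 13276 CPM and at 8560 to 10376 CPM, with pairs going both ways. The summed markers of CD8 and natural killer cells, B cells, plasma cells, erythroid cells and gamma-delta T cells did not overlap between the groups. Among single genes tested, 39% did not overlap. The erythroid sums were near the floor, at 0.182 to 0.251 CPM without and 0 to 0.157 CPM with TGF-beta. The part of these markers in the results on effector genes was not tested.

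Of 18 tested genes of the interleukin 2 axis, 6 rose and 3 fell, beside 8.06% and 4.38% of all genes. Beside the fall of Il2 itself, the receptor beta chain Il2rb rose from 485 ± 13.1 to 735 ± 41.8 CPM, and Stat5a from 678 ± 14.5 to 963 ± 32.3 CPM. Socs2, Stat5b, Bcl2 (0.78) and Socs3 (0.69) also rose, and Pim1 and Il2rg fell by 0.38 and 0.24. The number that rose was 4 without lactic acid alone replicate 1 or 2 or TGF-beta replicate 3, and 1 or 2 fell whichever library was left out. With replicates paired 9 were higher and 5 lower, beside 17.3% and 15.1% of all genes. All cultures contained added interleukin 2.

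Of 27 immediate early and activation genes, 10 fell and 1 rose (40.7% called, against 12.4% of all genes), with a median of -0.47. Egr3, induced by antigen receptor signals, was at 215, 189 and 224 CPM and at 99.9, 104 and 92.2 CPM (-1.08 ± 0.18). Cd40lg, the CD40 ligand, was at 117, 91.2 and 111 CPM and at 51.3, 52.9 and 53.3 CPM (-1.02 ± 0.20). In both the groups were apart. Spry2, a brake on MAP kinase signals, fell by 1.64 ± 0.31 and the nuclear receptor Nr4a2 by 0.68 ± 0.17 (not called without TGF-beta replicate 1), whereas Jun rose from 37.1 ± 8.23 to 94.7 ± 17.1 CPM. Irf4, the most abundant uncalled member, was at 1459 to 1505 CPM and at 1870 to 2092 CPM (0.40 ± 0.14, edgeR adjusted p = 0.061, and 0.013 with pairing). Pairing gave 17 lower and 2 higher, beside 15.1% and 17.3% of all genes. Leaving out 1 library gave 4 to 6 lower, with the lowest number without TGF-beta replicate 1.

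Of 18 genes of naive and resting T cells, 5 rose and 1 fell, beside 8.06% and 4.38% of all genes. Their median was 0.36. Klf2, a factor of quiescence and trafficking, was at 15.5, 23.0 and 52.9 CPM and at 73.4, 99.7 and 164 CPM (1.89 ± 0.43). Its target S1pr1, the receptor for exit from lymphoid organs, was at 17.98, 33.2 and 67.1 CPM and at 63.7, 97.0 and 172 CPM (1.49 ± 0.39, edgeR adjusted p = 0.013, and 2.1e-09 with pairing). Replicate 3 was the highest and replicate 1 the lowest of each group in both genes, so that the groups overlapped for S1pr1 although TGF-beta was higher in each of the 3 pairs. The calls of S1pr1 and Btg1 were lost without lactic acid alone replicate 1 or 2 or TGF-beta replicate 3. Txnip (1.08), Foxo1 and Btg1 (0.64 ± 0.17) also rose, and Satb1 fell. Pairing gave 10 higher, beside 17.3% of all genes, and without lactic acid alone replicate 1 the number was 2.

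Of 25 genes of DNA replication and S phase, 12 fell and none rose (48% called, against 4.38% of all genes called lower), with a median of -0.46. Ccne1, the G1 to S cyclin E1, was at 32.7, 24.1 and 16.2 CPM and at 15.8, 13.5 and 9.90 CPM (-0.90 ± 0.21). The loading factors of replication Cdt1, Cdc6 and Cdc45 fell by 0.54 ± 0.11, 0.78 ± 0.21 and 0.68 ± 0.18, and the clamp loader subunit Rfc4 by 0.50 ± 0.11. Mcm6, a subunit of the replicative helicase and the most abundant uncalled member, was at 720 to 866 CPM and at 774 to 897 CPM.

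Of 22 genes of G2 and M phase, 6 fell and none rose, beside 4.38% and 8.06% of all genes, with a median of -0.72. Ccna2, cyclin A2, was at 36.5, 29.6 and 16.4 CPM with lactic acid alone and at 15.5, 11.2 and 6.996 CPM with TGF-beta (-1.30 ± 0.35, edgeR adjusted p = 0.016, and 2.7e-06 with pairing). Aurkb, a mitotic kinase, was at 21.0, 18.6 and 9.93 CPM and at 10.2, 5.74 and 4.95 CPM (-1.26 ± 0.34). In both genes replicate 1 was the highest and replicate 3 the lowest of each group, and the groups of Aurkb overlapped. Kif11, Bub1 and Birc5, which act in the mitotic spindle and its checkpoint, fell by 1.04 ± 0.21, 1.03 ± 0.26 and 1.12 ± 0.34.

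The call of Ccne1 was lost without lactic acid alone replicate 1. The calls of Cdc6, Cdc45 and Bub1 were lost without lactic acid alone replicate 1 or TGF-beta replicate 3, and those of Ccna2, Aurkb and Birc5 also without lactic acid alone replicate 2 or TGF-beta replicate 2. The counts of cell cycle genes depended on how replicates were treated. With replicates paired, 22 genes of S phase and 15 of G2 and M phase were lower, beside 15.1% of all genes. Without lactic acid alone replicate 1, 2 and 1 were. Of 14 G1 regulators tested, 3 rose and 2 fell, beside 8.06% and 4.38% of all genes. The inhibitors Cdkn1b (p27) and Cdkn2d rose by 1.03 ± 0.27 and 1.15 ± 0.16 and the pocket protein gene Rbl2 by 0.48 ± 0.13. Ccnd2, cyclin D2, fell from 2387 ± 57.8 to 1488 ± 88.5 CPM and Cdk2 by 0.35 ± 0.10. The calls of Cdkn1b and Rbl2 were lost without lactic acid alone replicate 1 or TGF-beta replicate 3, which left 1 G1 regulator rising, and that of Cdk2 without replicate 1 or 2 of lactic acid alone or replicate 2 or 3 of TGF-beta, which left 1 falling.

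Myc was at 876, 838 and 845 CPM with lactic acid alone and at 490, 480 and 466 CPM with TGF-beta (-0.83 ± 0.27, edgeR adjusted p = 0.042, and 1.2e-06 with pairing). The groups lay far apart beside their spread, yet the call was lost when any 1 of the 6 libraries was left out. Of 25 genes of Myc and ribosome biogenesis, Myc fell and Mxd1, an antagonist of Myc, rose from 54.0 ± 5.12 to 108 ± 11.5 CPM. The share called was 8%, beside 12.4% of all genes. The median of the list was -0.40. With replicates paired 21 members were lower and 1 higher, beside 15.1% and 17.3% of all genes. Replicates 2 and 3 alone gave 19 lower. Ncl, the nucleolar protein nucleolin, was at 4908, 4574 and 4156 CPM and at 3304, 3479 and 3073 CPM (edgeR adjusted p = 0.095, and 0.00064 with pairing).

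Of 17 glycolysis genes, 7 fell and none rose (41.2% called, against 4.38% of all genes called lower), with a median of -0.38. Hk2, the inducible hexokinase, was at 162, 137 and 135 CPM and at 76.7, 74.5 and 63.0 CPM (-1.02 ± 0.15, edgeR adjusted p = 3.5e-05). Pfkfb3, which makes an activator of phosphofructokinase, fell by 0.55 ± 0.11, Pkm by 0.39 ± 0.11, Pgam1 by 0.45 ± 0.13 and Tpi1 by 0.46 ± 0.14, and the glucose transporter gene Slc2a1 and Gapdh also fell (0.43 and 0.38 lower). Ldha, lactate dehydrogenase A, was at 1125 to 1442 CPM and at 1032 to 1291 CPM, and the groups overlapped. The calls of Pkm, Pgam1 and Tpi1 were lost without lactic acid alone replicate 1 or 2 or TGF-beta replicate 3, and those of Pgam1 and Tpi1 also without TGF-beta replicate 2. Pairing gave 12 lower, beside 15.1% of all genes, and without lactic acid alone replicate 1 there were 2.

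Among 21 tested genes of lactate, pyruvate and proton handling 3 rose and 2 fell, beside 8.06% and 4.38% of all genes. Slc16a1, the monocarboxylate transporter MCT1 that carries lactate with a proton, was at 319, 304 and 276 CPM and at 196, 199 and 178 CPM (-0.65 ± 0.11). The proton-sensing receptor Gpr65 was at 60.1, 58.0 and 54.5 CPM and at 32.1, 38.1 and 37.3 CPM (-0.68 ± 0.11). Both genes were apart between groups in every library. Gpr4, another proton sensor, went from 3 to 36 counts (ratio of 11.4, 3.61 to 58), and Pdk2, a pyruvate dehydrogenase kinase, rose by 1.13 ± 0.35, a call lost without any 1 library other than TGF-beta replicate 1. The call of Gpr4 was lost without lactic acid alone replicate 1. Without that library or TGF-beta replicate 3 the number of the list that rose was 1, and without any other 1 library it was 2.

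None of 19 genes of the citrate cycle and respiratory chain and none of 19 of sterol synthesis was called by edgeR in the fit without pairs. With replicates paired, 7 and 5 were lower and 0 and 1 higher, beside 15.1% and 17.3% of all genes, and DESeq2 gave 1 and 2 lower. Of 15 genes of fatty acid oxidation, 4 rose and none fell, beside 8.06% and 4.38% of all genes. Cpt1a, the carnitine palmitoyltransferase that admits fatty acids to mitochondria, was at 38.8, 40.6 and 49.3 CPM and at 73.0, 84.3 and 100 CPM (1.00 ± 0.14). Hadhb, Eci2 and Etfdh rose by 0.46, 0.40 and 0.36. The call of Etfdh was lost without any 1 of the 6 libraries, under RLE scaling, without the filter on low counts and in DESeq2. That of Eci2 was lost without replicate 1 or 3 of TGF-beta or replicate 2 or 3 of lactic acid alone, and those of Eci2 and Hadhb without the filter. The number that rose without 1 library was 2 or 3, with 2 for these same 4 libraries. With replicates paired 6 were higher, beside 17.3% of all genes. Of 24 genes of the amino acid response to ATF4, 2 fell, beside 4.38% of all genes. Cbs, cystathionine beta-synthase, fell by 1.97 ± 0.40 from 1.41 ± 0.43 CPM, and Mthfd2, a mitochondrial folate enzyme, by 0.59 ± 0.17. The call of Mthfd2 was lost without replicate 1 or 2 of lactic acid alone or replicate 2 or 3 of TGF-beta, and 3 genes of the list fell without TGF-beta replicate 1 or lactic acid alone replicate 3. Of 25 interferon-induced genes 2 rose (8%, beside 8.06% of all genes), among them Stat2 (0.79 ± 0.20). Its call was lost without lactic acid alone replicate 1 or 2 or TGF-beta replicate 3, which left 1 of the list rising, and 3 rose without lactic acid alone replicate 3. With replicates paired 11 of the list were higher, beside 17.3% of all genes. Of 11 tested genes of the adenosine list 4 rose, beside 8.06% of all genes. Besides Nt5e and Entpd1, these were the nucleoside transporter Slc29a1, from 195 ± 3.61 to 324 ± 6.73 CPM, and the ATP release channel Panx1 (0.36 ± 0.10). The call of Panx1 was lost without lactic acid alone replicate 2 or TGF-beta replicate 3 and without the filter on low counts. Of 13 lineage genes of CD4 and CD8 T cells 2 rose and 4 fell, beside 8.06% and 4.38% of all genes. Runx1 and Bcl11b (0.62 ± 0.14) rose, and Satb1, Gata3, Cd8b1 and Ikzf1 (by 0.32 ± 0.07) fell.

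**Figure D3:**
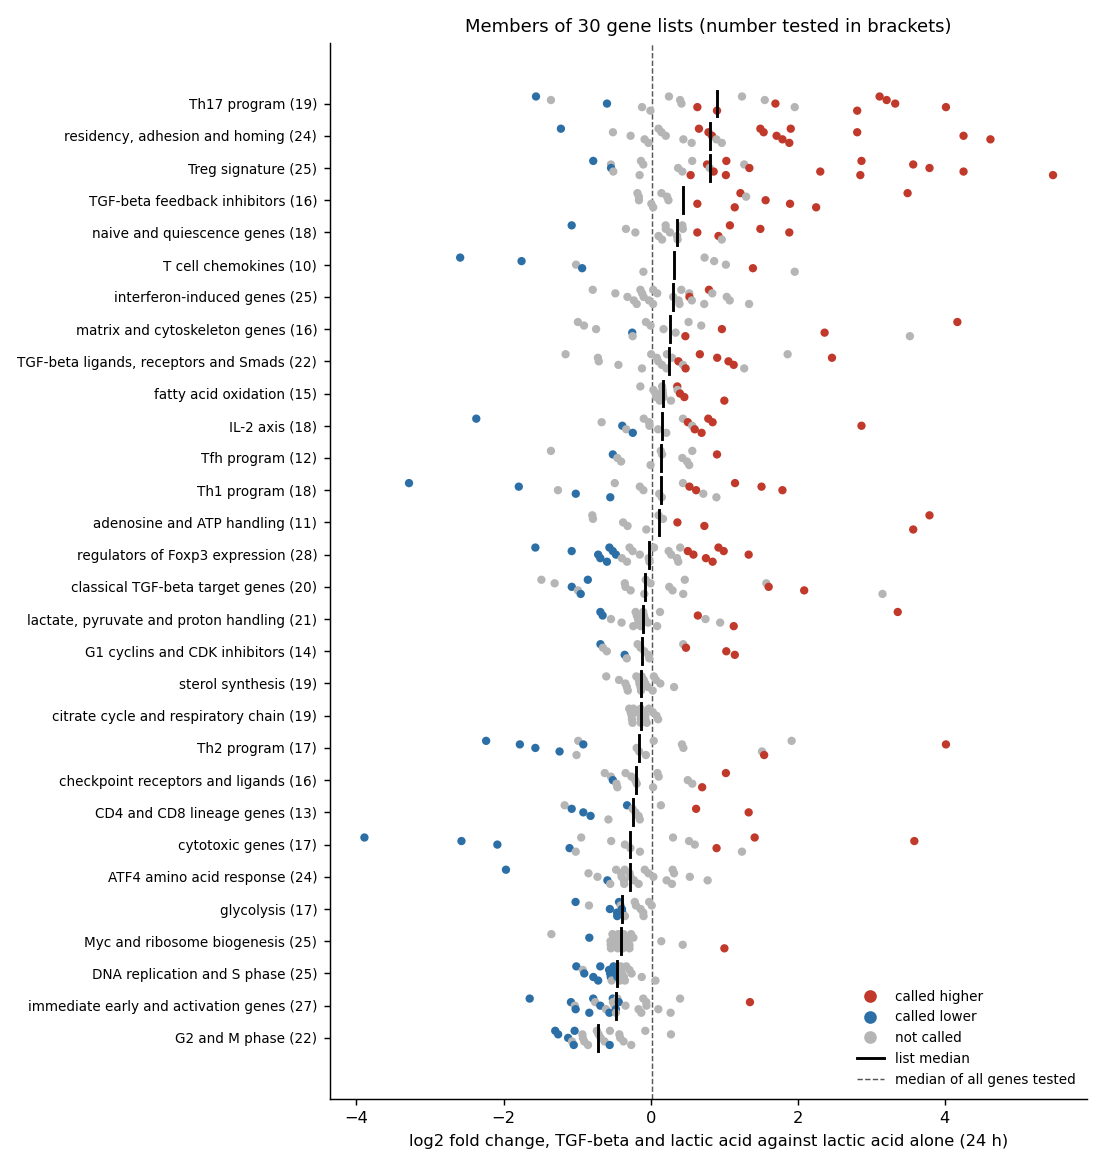
Log2 fold change of each tested member of 30 gene lists (points; red called higher, blue called lower, grey not called), with the list median as a black bar and the median of all genes as a dashed line; list names carry the number tested. Th17, residency and regulatory T cell genes have the highest medians (0.90, 0.81 and 0.80), and G2 and M phase genes the lowest (-0.72).

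To ask whether the response differed with lactic acid, the same contrast was taken between the 24 h Tcon libraries with TGF-beta alone and with neither addition, 3 each, which share no library with the first. It called 1625 genes (11.3%), 1144 of them higher (7.96%) and 481 lower (3.35%). The calls overlapped: 886 genes rose in both, 76.4% of those that rose with lactic acid and 77.4% of those that rose without, and 323 fell in both, 51.4% and 67.2%. Over all 14375 genes the log2 fold changes correlated with a Pearson r of 0.69, across genes that are not independent replicates. Foxp3 was at 1.202 ± 0.124 CPM without and 47.3 ± 4.38 CPM with TGF-beta in medium without lactic acid (5.29, beside 5.47 with it), and Fbxo2 had no count and 831 counts, at least 289-fold higher against 3 counts over the group. The interval of the difference for Foxp3 ran from -1.05 to 1.41.

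The test of the difference itself called no gene (edgeR, smallest adjusted p = 1.0). At an unadjusted p under 0.05 there were 197 genes by edgeR, 612 with replicates paired and 173 by DESeq2, and none of these fits called a gene. Each number is a smaller share of the 14375 genes than the 0.05 that calibrated p-values would give with no true difference. These p-values and SE may thus be too large, and the lack of calls does not show that the effects are equal. Among the 1788 called genes the 2 effects differed by a median of 0.129 (absolute, log2 scale) with a median SE of 0.223. For 1376 of them the 95% interval of the difference lay within 2-fold either way, and the median interval reached 0.436 to either side. Of the 578 genes called with lactic acid and not without, 570 had the same sign without. The median difference was 0.034 among genes that rose and -0.129 among genes that fell.

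The 5 genes with the smallest unadjusted p in that test were of modest change or low level. Dact3, a Wnt pathway antagonist, was the 1 gene called in opposite directions, at 0.683 and 0.187 CPM (means without and with TGF-beta) with lactic acid and at 0.166 and 0.568 CPM in its absence. Its call with lactic acid was lost without TGF-beta replicate 1 or lactic acid alone replicate 2. Tmem159 rested on 1 and 8 counts with lactic acid and on 11 and 3 without. Ptger4, a prostaglandin E2 receptor, differed by 0.03 ± 0.07 with lactic acid and by 0.42 without, and Pik3c2b, a class II PI3 kinase, by 0.02 ± 0.12 and 0.66. Uhrf1bp1 rose in both, by 1.25 ± 0.09 and 0.82.

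**Figure D4:**
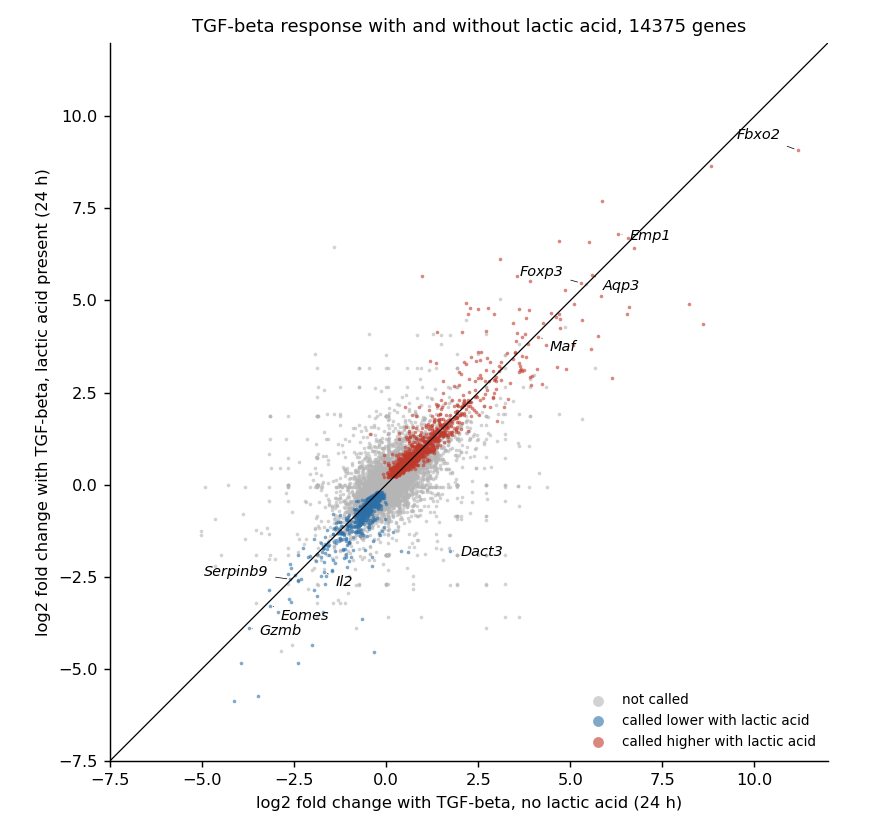
Log2 fold change with TGF-beta at 24 h in medium with lactic acid (vertical) against that without (horizontal), 1 point per gene over 14375 genes, coloured by the call with lactic acid; the line marks equal effects. Leading genes lie near the line; the value of Fbxo2 is fitted on a group with no count and is no bound, and Dact3 lies in the quadrant of opposite sign.

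The same contrast at 72 h, again in libraries that share none with it, called 6471 genes (45%). Of the genes called at 24 h, 832 rose and 358 fell at both times, 38 rose at 24 h and fell at 72 h, and 38 did the reverse. The difference between times was called for 2068 genes (14.4%), and for 4831 with replicates paired. Of the 2068, 967 had the higher signed effect at 72 h and 1101 the lower. Time cannot be told apart from any other difference between the collections.

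The leading genes differed in how their response compared with that at 72 h. Foxp3, at 1.45 ± 0.525 and 64.9 ± 8.12 CPM at 24 h, was at 0.0723 ± 0.1253 and 48.2 ± 12.1 CPM at 72 h, where 3 counts stood against 1652. In these Tcon libraries the level of Foxp3 with TGF-beta was not higher at 72 h, while that without was at 3 counts. The call of the difference was lost without replicate 2 of lactic acid alone at 24 h. It was also lost without replicate 1 or 3 of lactic acid alone at 72 h, and in replicates 2 and 3 alone. Separate Treg libraries exist for the 72 h groups with TGF-beta, and for no group at 24 h or with lactic acid alone. Cells sorted as Treg are thus not in the Tcon levels at 72 h, and the part of this split was not tested. Il2 fell at both times: its level was 118 ± 46.4 CPM without and 23.0 ± 8.02 CPM with TGF-beta at 24 h, and 211 ± 70.6 and 2.24 ± 1.03 CPM at 72 h. Nt5e rose at both, and more at 72 h (7.13 ± 0.43 beside 3.79 ± 0.33).

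Others had a smaller or an opposite change at 72 h. Fbxo2 was at 21.0 ± 1.08 CPM with TGF-beta at 24 h and at 2.32 ± 0.157 CPM at 72 h, beside 0.302 ± 0.145 CPM without. Emp1 rose by 3.40 ± 0.27 at 72 h, Stab1 by 1.75 ± 0.36 and Maf by 2.14 ± 0.24, each less than at 24 h. Eomes, which fell at 24 h, rose at 72 h from 10.4 ± 7.86 to 61.7 ± 24.8 CPM (2.54 ± 0.45, edgeR adjusted p = 8.3e-05). Gzmb fell at both times, at 72 h from 670 ± 114 to 287 ± 22.3 CPM.

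**Figure D5:**
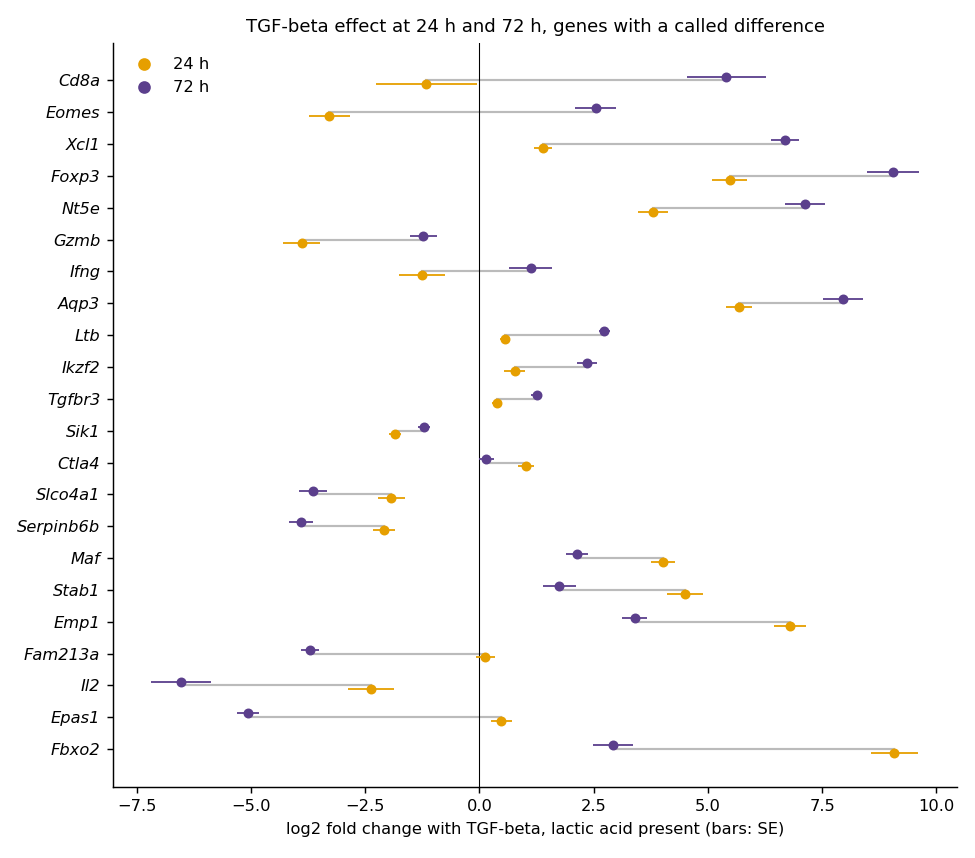
Log2 fold change with TGF-beta in medium with lactic acid at 24 h (orange) and 72 h (purple) for 22 genes whose effects differed between times by edgeR, with SE bars. Eomes lies at -3.28 at 24 h and at 2.54 at 72 h, and Foxp3 lies to the right of 0 at both times.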

How the data were processed

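RNA of 29 libraries was sequenced as 65 base single reads. The authors deposited 1 table of counts per library, made with STAR 2.7.3a and HTSeq 0.12.4 on GRCm39, with DESeq2 1.30.1 also listed, per the submitters' processing notes. Overlapping and antisense genes are uncertain, since the strand setting of the counting is not given in the sources used here. Entries naming no gene (21.9% to 26.7% of each library) were left out. Identifiers were named from the GENCODE annotation of GRCm38 (52081 of 55414 matched). All libraries entered 1 fit in edgeR 4.0.16 (R 4.3.3) of 10 groups without covariates, with TMM scaling, filterByExpr (minimum count 10, minimum total 15) and the quasi-likelihood test; p-values were adjusted by Benjamini-Hochberg over 14375 genes. Intervals of fits are 95% intervals. Depth of the 6 libraries, 10842352 to 12575134 counts, limits genes at a few counts. The members and lists were chosen with earlier results of these data known. Named were the 12 largest rises and falls with no overlap and at least 5 CPM in the higher group, a panel of 21 genes, up to 5 called members per list and its most abundant uncalled member, and 5 genes per interaction. Other list members, and the marker genes, were named after their values were seen. Deviations from group means of same-numbered libraries correlated at 0.382, 0.169 and 0.333 (other pairs -0.329 to -0.027). The numbers were therefore taken to pair the libraries in the replicate block, which is an alternative. Calls of genes that rose or fell come from the fit without pairs. Alternatives were RLE scaling, DESeq2 1.42.0, no filter, fewer groups, the replicate block, omission of each library and, added after seeing the data, replicates 2 and 3 alone. Some named genes are not reported here. The scripts were tested on simulated data.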

Additional observations from a re-analysis of the deposited data

Results flagged for a closer look

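The effect of TGF-beta in medium with lactic acid differed between 24 h and 72 h for 22 of the genes named here, by edgeR's test of the difference with Benjamini-Hochberg adjustment. Values are the 72 h effect minus the 24 h effect on the log2 scale, and time cannot be told apart from other differences between the collections. Lower and higher refer to the signed effect. The falls of Il2, Serpinb6b and Slco4a1 were thus larger at 72 h, and those of Gzmb and Sik1 smaller. The effect was lower at 72 h for Fbxo2 (-6.16), Emp1 (-3.40), Stab1 (-2.75), Maf (-1.88), Il2 (-4.16), Serpinb6b (-1.82), Slco4a1 (-1.72), Ctla4 (-0.87), Epas1 (-5.53) and Fam213a (-3.84). It was higher at 72 h for Aqp3 (2.28), Foxp3 (3.57), Gzmb (2.67), Eomes (5.83), Sik1 (0.63), Ikzf2 (1.59), Tgfbr3 (0.88), Ifng (2.39), Cd8a (6.57), Nt5e (3.34), Xcl1 (5.30) and Ltb (2.17).

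The difference for Aqp3 rested on 3 counts without TGF-beta at 72 h, and its call was lost in 8 of 12 omissions of a library. The call was also lost for Foxp3 and Ifng in 3 omissions each, and for Sik1 (without TGF-beta replicate 1 at 24 h) and Ctla4 (without lactic acid alone replicate 1 at 72 h) in 1. Epas1, which encodes a hypoxia-inducible factor, was at 3.41 ± 0.815 and 4.71 ± 1.4 CPM at 24 h, and fell at 72 h from 68.7 to 2.03 CPM. Cd8a was at 0.678 and 0.295 CPM at 24 h and rose at 72 h from 0.269 to 11.9 CPM.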

How the results depend on the processing

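Of 169 named genes 136 were called, 101 of them in every omission of 1 library and 100 under all alternatives run, and no called gene reversed. The 1788 calls became 4655 with the replicate block within time, 5701 with the replicate block in the 6 libraries alone, 3305 with the compared groups alone, 4075 with the 24 h libraries alone, 3100 with replicates 2 and 3 alone and 976 to 1756 without 1 library. Calls of higher genes became 2482, 2928, 1750 and 2070 in the first 4 of these, and 692 to 1163 without 1 library. Calls of lower genes became 2173, 2773, 1555, 2005 and 1443, 1027 by DESeq2, and 284 to 690 without 1 library. The difference between times was called for 4831 genes with the replicate block (2124 higher, 2707 lower), 3327 with replicates 2 and 3 alone (1484 and 1843) and 1512 to 2045 without 1 library (752 to 1168 higher, 726 to 1104 lower), and the lower calls were 711 without the filter. The cause of these shifts was not tested.

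Uncalled genes near 0 changed sign. Il4ra was at -0.009327 without the filter, -0.003719 without lactic acid alone replicate 1 and -0.1459 to 0.1718 over all omissions of 1 library. Mcm6 was at -0.02232 to 0.127 without 1 library, and Gbp2 at -0.3014 to 0.01623. Hadha was at -0.004004 with RLE, -0.01468 without the filter, -0.004013 by DESeq2, and -0.01888 to 0.07531 without 1 library. Ptger4 was at -0.01436, -0.02502, -0.01464, and -0.03378 to 0.06641 in the same settings. Pik3c2b was at -0.01881, -0.02886, -0.01878, -0.05012 to 0.1092 without 1 library, and -0.02519 with replicates 2 and 3 alone.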
